A study of Mus musculus with 16 samples.

Results

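De novo lipogenesis, the making of fatty acids from acetyl-CoA, was followed through 10 genes chosen by name for their role in the pathway: Fasn, Acaca, Acacb, Acly, Scd1, Scd2, Elovl6, Me1, Mlxipl and Thrsp. They are 10 of the 54532 genes in the table, and all 10 were measured and passed the minimum for testing. Bulk RNA was sequenced from inguinal white adipose tissue (iWAT), the subcutaneous fat pad of the groin, of 16 male mice in 4 groups of 4. Has2_TG mice (Apn-Has2) carry a doxycycline-driven transgene for the hyaluronan synthase Has2, and PH20_TG mice (Apn-PH20) carry one for PH20, a hyaluronidase encoded by Spam1. Has2_WT and PH20_WT are the Apn-rtTA littermate controls of each line, so every group carries rtTA, the doxycycline-activated transcription factor, under the adiponectin promoter of adipocytes. All mice, 8 to 10 weeks old at the start, were fed doxycycline in chow (200 mg/kg) over 5 days.

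The pathway starts in the cytosol, where ATP citrate lyase (Acly) cuts citrate into acetyl-CoA. Acetyl-CoA carboxylase 1 (Acaca) turns it into malonyl-CoA, and fatty acid synthase (Fasn) builds palmitate from malonyl-CoA with NADPH, part of which comes from malic enzyme (Me1). Acacb, the carboxylase at the mitochondrial membrane, makes the malonyl-CoA that holds back fatty acid import into mitochondria. Elovl6 lengthens palmitate, and the stearoyl-CoA desaturases Scd1 and Scd2 place a double bond in it. Mlxipl encodes ChREBP, a transcription factor that responds to sugar and acts on many of these genes, and Thrsp (Spot 14) is a small protein tied to lipogenesis in fat, liver and mammary gland. In white fat these genes are known to respond to feeding and insulin.

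Levels are given in FPKM, fragments scaled to gene length and a total per library, as deposited. On build GRCm38, Fasn (11:120805846-120824547, minus strand), Acly (11:100476353-100528000, minus strand) and Acaca (11:84129672-84401651, plus strand) all lie on chromosome 11. Scd1 (19:44394451-44407709, minus strand) and Scd2 (19:44293676-44306864, plus strand) are neighbouring paralogues on chromosome 19, and reads shared by such copies could be split between them. Acacb (5:114146535-114250761) and Mlxipl (5:135089890-135138382) lie on chromosome 5, Elovl6 (3:129532355-129638495) on chromosome 3, Me1 (9:86581371-86695953) on chromosome 9 and Thrsp (7:97412938-97417730) on chromosome 7. Genes that overlap a member took reads equal to at most 0.891% of that member's own, the largest share being that of the antisense gene Gm43500 in Mlxipl. Whether the counting used strand is not given in the sources used here.

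Because the 10 genes moved together across the libraries, the 250 bases before each RefSeq start were searched on both strands for the E-box (CACGTG), the sterol regulatory element (SRE), the CCAAT box (CCAAT) and the GC box (GGGCGG). RefSeq (GRCm38.p6) promoters were at hand for 8 of the 10 members. Of all 32851 promoters, 6.02% held an E-box, 1.05% an SRE, 33.8% a CCAAT box and 32.7% a GC box. The 8 members had 10 windows, of which 1 held an E-box, 1 an SRE, 5 a CCAAT box and 3 a GC box, and those of Acaca and Elovl6 held none of the 4. Some of these windows lay far from the annotated start of the gene. The distance was 65766 bases for Acaca, 18983 for Acacb, 17001 for the Mlxipl window with the SRE and 8676 for 1 Me1 window. Only 5 members had a window within 100 bases of that start. The 3 windows below are shown because they start where the gene itself starts. They lie before Fasn, Acly and Mlxipl. Fasn and Acly were called lower in Has2_TG than in Has2_WT before adjustment over all genes, and the regulator Mlxipl was not. Capitals mark the motif matches.
Fasn promoter, chr11:120824548-120824797, minus strand: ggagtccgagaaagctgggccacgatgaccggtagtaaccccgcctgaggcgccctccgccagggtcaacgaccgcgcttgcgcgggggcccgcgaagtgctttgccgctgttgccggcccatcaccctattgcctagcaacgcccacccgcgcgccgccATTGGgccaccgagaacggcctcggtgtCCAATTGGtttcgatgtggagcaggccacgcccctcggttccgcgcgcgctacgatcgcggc
Acly promoter, chr11:100528001-100528250, minus strand: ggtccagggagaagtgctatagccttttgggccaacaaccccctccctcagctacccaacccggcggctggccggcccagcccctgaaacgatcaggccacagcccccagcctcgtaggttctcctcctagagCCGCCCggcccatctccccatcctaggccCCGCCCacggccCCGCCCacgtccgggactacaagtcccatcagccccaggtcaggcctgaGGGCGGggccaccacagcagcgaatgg
Mlxipl promoter, chr5:135089640-135089889, plus strand: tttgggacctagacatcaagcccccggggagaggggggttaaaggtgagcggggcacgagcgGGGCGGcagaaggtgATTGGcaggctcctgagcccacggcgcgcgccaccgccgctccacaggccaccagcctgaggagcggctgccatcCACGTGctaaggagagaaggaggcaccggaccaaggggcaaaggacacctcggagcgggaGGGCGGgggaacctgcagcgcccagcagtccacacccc
The Fasn window held 3 CCAAT boxes, at 90, 62 and 59 bases before the start, of which the last 2 overlap on opposite strands. The Acly window held 4 GC boxes and none of the other motifs. The Mlxipl window held 1 E-box, 1 CCAAT box and 2 GC boxes. A match is only a match of letters, and it shows no binding.

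The libraries held 14421692 to 26751729 reads on genes, with a median of 18452544.5. Has2, whose reads cannot be split between transgene and endogenous gene, was at 0.585 ± 0.176 FPKM in Has2_WT and 2.59 ± 0.631 in Has2_TG (SD, n = 4), and the groups did not overlap. Spam1 had 6 reads in PH20_TG2, 12 in PH20_TG3 and 5 in PH20_TG4, but 0 reads in the library labelled PH20_TG1 and in the other 12 libraries, where a count of 0 allows up to 3 reads. The library labelled PH20_TG1 also had 3.32 FPKM of Has2, PH20_TG4 had 3.26, and the other PH20_TG libraries had 0.380 and 0.0990. Results of the PH20 study are therefore given with and without these libraries. The tissue label was checked against 14 adipocyte markers: all 14 (Adipoq, Plin1, Fabp4 and others) were detected in every library, with summed FPKM of 15446 to 34962. B cell markers were high in Has2_WT1, Has2_WT2, PH20_WT1 and PH20_WT3 (summed FPKM 315, 252, 322 and 119) and at 1.66 to 6.11 in the other 12 libraries.

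The 10 genes made up a large part of the tissue's messenger RNA. They took 7.62 ± 1.73% of all reads on genes in Has2_WT (SD, n = 4), 4.27 ± 0.615% in Has2_TG, 4.10 ± 1.11% in PH20_WT and 5.32 ± 1.58% in PH20_TG. Scd1 alone took 1.80% to 5.06%, and it had more reads than any other gene in Has2_WT3, Has2_WT4, PH20_TG2 and PH20_TG3. In the remaining libraries that place went to mt-Co1, a mitochondrial gene.

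**Figure D1:**
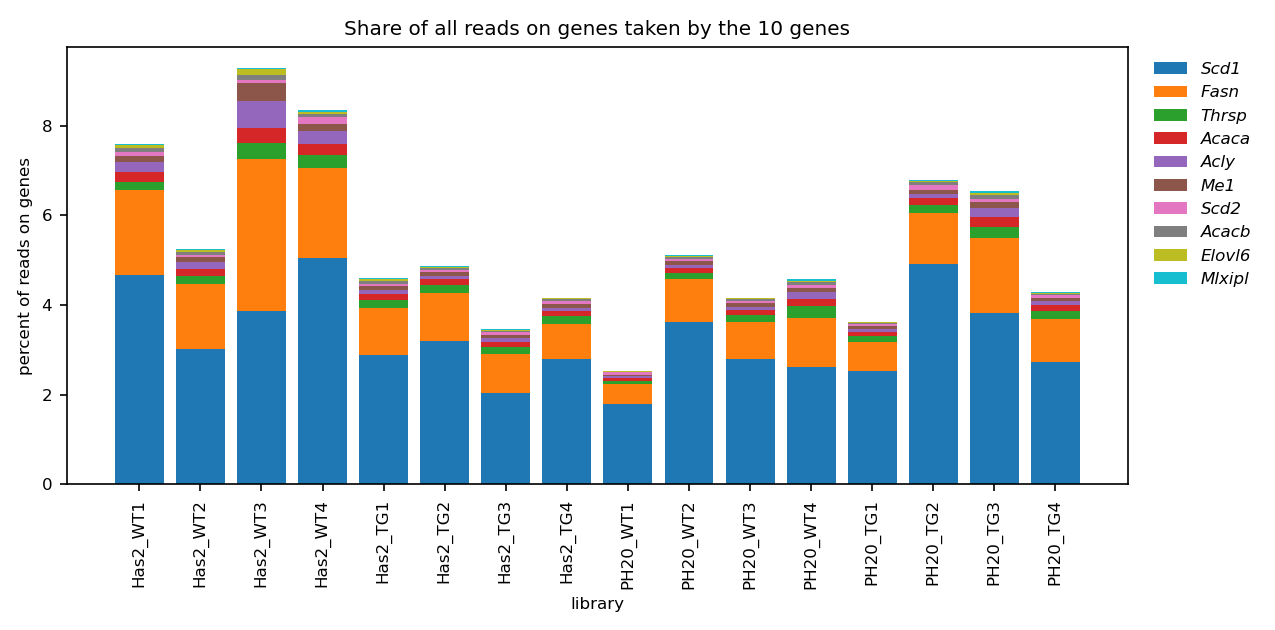
Share of reads on genes taken by each of the 10 genes in each of the 16 libraries, in percent, stacked from Scd1 at the bottom. Scd1 and Fasn make up most of every bar, which ranges from 2.54% in PH20_WT1 to 9.29% in Has2_WT3.

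Per length, Scd1 was the highest of the 10 genes in each group, from a mean of 5367 FPKM in PH20_WT to 8798 FPKM in Has2_WT. Fasn and Thrsp came next in each group, with ranges that overlapped each other. Me1 and Acly followed, then Scd2, Acaca, and Acacb and Elovl6 in either order, and Mlxipl, the transcription factor, was lowest, at group means of 32.6 to 50.3 FPKM. Neighbours in this order did not separate below Acaca in any group, since their ranges overlapped. Acly and Me1 changed places between groups: Acly stood above Me1 in Has2_WT (637 against 570 FPKM, with overlapping ranges) and below Me1 in Has2_TG (152 against 209 FPKM, with separate ranges). Between groups, Has2_WT had the highest mean of all 10 genes and PH20_WT the lowest of all but Acly, for which Has2_TG stood at 152 and PH20_WT at 153 FPKM.

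**Figure D2:**
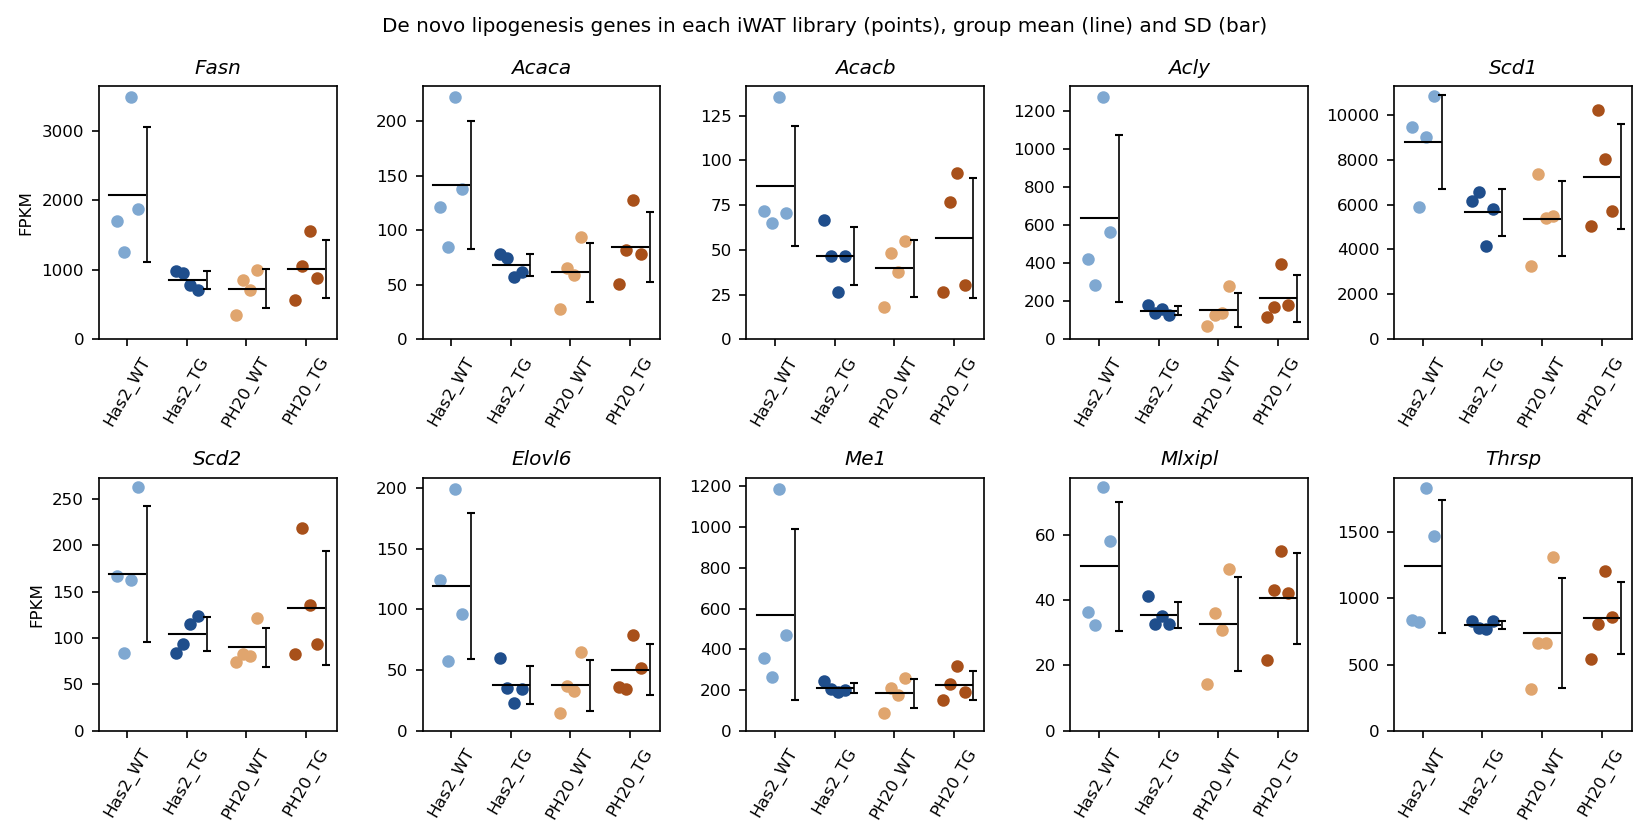
FPKM of each of the 10 genes (1 panel each) in every library, by group. Points are libraries, the line is the group mean and the bar is 1 SD (n = 4). Has2_WT has the highest mean in each panel and a wide spread, with Has2_WT3 the highest point for Fasn, Acly and Me1.

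The first comparison asked how these genes differed between mice with the Has2 transgene and their littermate controls. In Has2_TG, 6 of the 10 genes were lower than in Has2_WT and none was higher. A gene is called changed here at an unadjusted p under 0.05 in limma's moderated test, two-sided, on log2(FPKM + 0.1). That threshold follows the methods of the original work, and each difference is given with its SE or 95% interval and the p adjusted over all genes. On the log2 scale, Has2_TG minus Has2_WT, the differences called were -1.85 for Acly, -1.59 for Elovl6, -1.202 for Me1, -1.19 for Fasn, -0.98 for Acaca and -0.88 for Acacb. Scd1, Scd2, Thrsp and Mlxipl had differences of -0.62, -0.60, -0.54 and -0.43 and did not pass. Of the 12606 genes tested, 3.75% were called lower and 6.25% higher. After Benjamini-Hochberg adjustment over all genes 0.103% were called, and none of the 10 was among them. The median difference of the 10 genes was -0.93, while that of all genes was -0.03.

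All 4 genes of fatty acid synthesis were called lower in Has2_TG than in Has2_WT. Acly, which supplies the acetyl-CoA, was at 425, 285, 1272 and 565 FPKM in Has2_WT1 to Has2_WT4 and at 181, 138, 159 and 129 FPKM in Has2_TG1 to Has2_TG4. The groups did not overlap, and the 4 transgenic libraries lay within a narrow band below the lowest control. The difference in log2(FPKM + 0.1) was -1.85 ± 0.39 (SE, limma adjusted p = 0.0906).

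Fasn, the synthase itself, was at 1708, 1253, 3490 and 1883 FPKM in the controls and at 981, 956, 789 and 707 FPKM in Has2_TG. Again the groups were apart, with Has2_WT3 far above the rest. The difference was -1.19 ± 0.32 (SE, limma adjusted p = 0.182).

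Acaca, which makes the malonyl-CoA used by Fasn, was at 122, 84.3, 223 and 138 FPKM in the controls and at 78.1, 74.8, 57.6 and 61.8 FPKM in Has2_TG. The gap between the lowest control, Has2_WT2, and the highest transgenic library, Has2_TG1, was small. The difference was -0.98 ± 0.27 (SE, limma adjusted p = 0.195).

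For Acacb, the mitochondrial carboxylase, the controls were at 71.4, 65.0, 136 and 70.4 FPKM and the Has2_TG libraries at 66.6, 46.5, 26.7 and 46.7 FPKM. Has2_TG1 lay just above Has2_WT2, so the groups overlapped. The difference was -0.88 ± 0.31 (SE, limma adjusted p = 0.357), and the call was lost when all 16 libraries were fitted together (limma adjusted p = 0.468) and with the replicate number as a block (limma adjusted p = 0.552). The ratio of Acaca to Acacb was 1.65 ± 0.27 in Has2_WT and 1.57 ± 0.43 in Has2_TG (SD, n = 4), a difference within the spread (exact permutation test on log2 ratios, two-sided, p = 0.686).

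The desaturation and elongation genes were split. Elovl6, the elongase of palmitate, was at 124, 57.6, 199 and 96.2 FPKM in the controls and at 60.3, 34.9, 23.2 and 34.2 FPKM in Has2_TG. Has2_TG1 lay above Has2_WT2 by a small margin, and the other transgenic libraries lay below every control. The difference was -1.59 ± 0.38 (SE, limma adjusted p = 0.135).

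Scd1, the main desaturase of fat, was at 9465, 5873, 9027 and 10827 FPKM in Has2_WT and at 6148, 6536, 4144 and 5786 FPKM in Has2_TG. Has2_WT2 lay inside the transgenic range, and the difference of -0.62 had a 95% interval from -1.41 to 0.16 (limma adjusted p = 0.619). Scd2 was at 166, 84.2, 163 and 263 FPKM in the controls and at 84.1, 94.1, 115 and 124 FPKM in Has2_TG, again with Has2_WT2 among the transgenic libraries. Its difference of -0.60 had an interval from -1.29 to 0.0845 (limma adjusted p = 0.574). The ratio of Scd1 to Scd2 was 55.8 ± 11.7 in Has2_WT and 56.3 ± 17.9 in Has2_TG (SD, n = 4, exact permutation test on log2 ratios, two-sided, p = 0.971).

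Me1, the NADPH-making malic enzyme, was at 357, 264, 1187 and 471 FPKM in Has2_WT and at 243, 204, 191 and 199 FPKM in Has2_TG. The groups did not overlap, but the size of the difference rested in part on Has2_WT3. It was -1.202 ± 0.40 (SE, limma adjusted p = 0.315) with that library and -0.77 without it (limma adjusted p = 0.269).

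The regulators Thrsp and Mlxipl did not pass. Thrsp was at 834, 821, 1833 and 1467 FPKM in Has2_WT and at 826, 777, 770 and 825 FPKM in Has2_TG. Has2_WT3 and Has2_WT4 stood far above the other 6 libraries, which lay close to each other. The difference was -0.54 with an interval from -1.18 to 0.09 (limma adjusted p = 0.586). Mlxipl had means of 50.3 ± 19.7 and 35.4 ± 4.002 FPKM in Has2_WT and Has2_TG (SD, n = 4), with the same pair of controls on top. Its difference of -0.43 had an interval from -0.999 to 0.14 (limma adjusted p = 0.647). Without Has2_WT3 the difference was -0.21 for Mlxipl and -0.33 for Thrsp. Without Has2_WT2 both were called lower, at -0.61 and -0.71, as was Scd2 at -0.90, and without Has2_WT1 Thrsp was called at -0.70.

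Of the 10 genes, 4 had groups that did not overlap (Fasn, Acaca, Acly and Me1), against 2.11% of all genes tested that were lower without overlap. The coefficient of variation over 4 libraries was higher in the controls than in the transgenic mice for each of the 10 genes, by unequal margins. It was highest in Has2_WT for Acly (68.9%) and Me1 (73.8%), against 15.2% and 11.2% in Has2_TG. The groups were closer for Acacb (39.1% in Has2_WT and 34.97% in Has2_TG), Scd1 (23.8% and 18.6%) and Elovl6 (50.3% and 41.2%). The difference in spread was not tested. Has2_WT2 had the lowest control value of all 10 genes. Without it and Has2_WT1, the 2 controls rich in B cell genes, all 10 genes were called lower, with a median of -1.26, in a fit that called 3.64% of all genes lower.

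The adipocyte markers gave no call. None of 14 passed in either direction, their median difference was 0.03, and their mean log2(FPKM + 0.1) was 9.64 ± 0.33 in Has2_WT and 9.72 ± 0.08 in Has2_TG (SD, n = 4, exact permutation test, two-sided, p = 0.971). With the adipocyte marker mean as a covariate, 7 of the 10 genes were called lower, against 4.97% of all genes. Markers of other cell types were called, beside 6.25% of all genes called higher and 3.75% lower. Of the adipocyte progenitor markers (Pdgfra, Dpp4, Pi16 and others) 7 of 8 rose, and their summed FPKM went from 176 to 373 in Has2_WT to 544 to 775 in Has2_TG, with no marker at 0. Macrophage markers rose for 6 of 8 (median 0.82). Of the endothelial markers 1 of 6 was called higher, as was 1 of 6 Schwann cell markers, and in each list 5 of 6 differences lay above 0. The Schwann cell list had a mean log2(FPKM + 0.1) of 2.19 ± 0.14 in Has2_WT and 2.59 ± 0.23 in Has2_TG (SD, n = 4). These groups did not overlap (exact permutation test, two-sided, p = 0.0286). B cell and T cell markers fell for 3 of 8 each, with medians of -2.92 and -2.64. Brown and beige adipocyte markers fell for 2 of 8 (Elovl3 stands in this list and among the elongases below), skeletal muscle markers did not pass for any of 11 tested, and skin epithelium markers for neither of 2 tested. The muscle markers split Has2_TG: their summed FPKM was 443 and 957 in Has2_TG1 and Has2_TG2 and 7.92 and 10.1 in Has2_TG3 and Has2_TG4. In Has2_WT it was 26.1 to 126. The part of progenitors and macrophages in the lower values of the 10 genes was not tested. In bulk tissue, fewer cells of a type and less RNA per cell cannot be told apart.

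The lists of neighbouring pathways showed where else the difference lay. Precursor and NADPH supply (the citrate carrier, the pentose phosphate enzymes and others) fell for 6 of 12 genes, with none higher and a median of -0.61. Of all genes, 3.75% were called lower. Acss2, which makes acetyl-CoA from acetate, went from 67.6 ± 40.6 to 25.3 ± 2.04 FPKM (SD, n = 4, difference -1.25, limma adjusted p = 0.184). Pdha1, a subunit of pyruvate dehydrogenase, went from 172 ± 64.0 to 83.7 ± 20.4 FPKM (difference -0.999, limma adjusted p = 0.152). Tkt, the transketolase of the pentose phosphate pathway, differed by -0.94 (limma adjusted p = 0.328). Pcx, Hk2 and Slc2a4, the other 3 called genes, were named after their values were seen and fell by 0.76, 0.67 and 0.55.

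Fatty acid activation and esterification fell for 3 of 14 genes, against 3.75% of all genes, with a median of -0.31. Gpd1, which makes glycerol 3-phosphate, went from 909 ± 335 to 490.3 ± 69.9 FPKM (SD, n = 4, difference -0.84, limma adjusted p = 0.266). Gpam, which adds the first acyl chain to it, differed by -0.79 (limma adjusted p = 0.273) and the phosphatidate phosphatase Lpin1 by -0.69 (limma adjusted p = 0.306).

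None of the 16 lipogenic regulators passed (median -0.08). Nr1h3, the nuclear receptor LXR alpha, differed by 0.21, Insig1, which holds SREBP in the endoplasmic reticulum, by -0.45, and Bhlhe40 by -0.67. Srebf1, the gene of SREBP-1, is given for its role and was picked after its value was seen: it was at 131 FPKM in Has2_WT and 105 FPKM in Has2_TG, a difference of -0.27 (95% interval -0.80 to 0.26, limma adjusted p = 0.765). No gene passed among 10 other desaturases and elongation enzymes (Fads2 -0.68, Hsd17b12 -0.44, Elovl3 -1.76), among 9 genes of mitochondrial fatty acid synthesis (Acsf3 -0.41, Oxsm -0.34, Lipt1 -0.68) or among 9 of acetyl-CoA carboxylase inactivation and malonyl-CoA removal (Prkag1 0.24, Stk11 -0.16, Prkab1 -0.20).

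**Figure D3:**
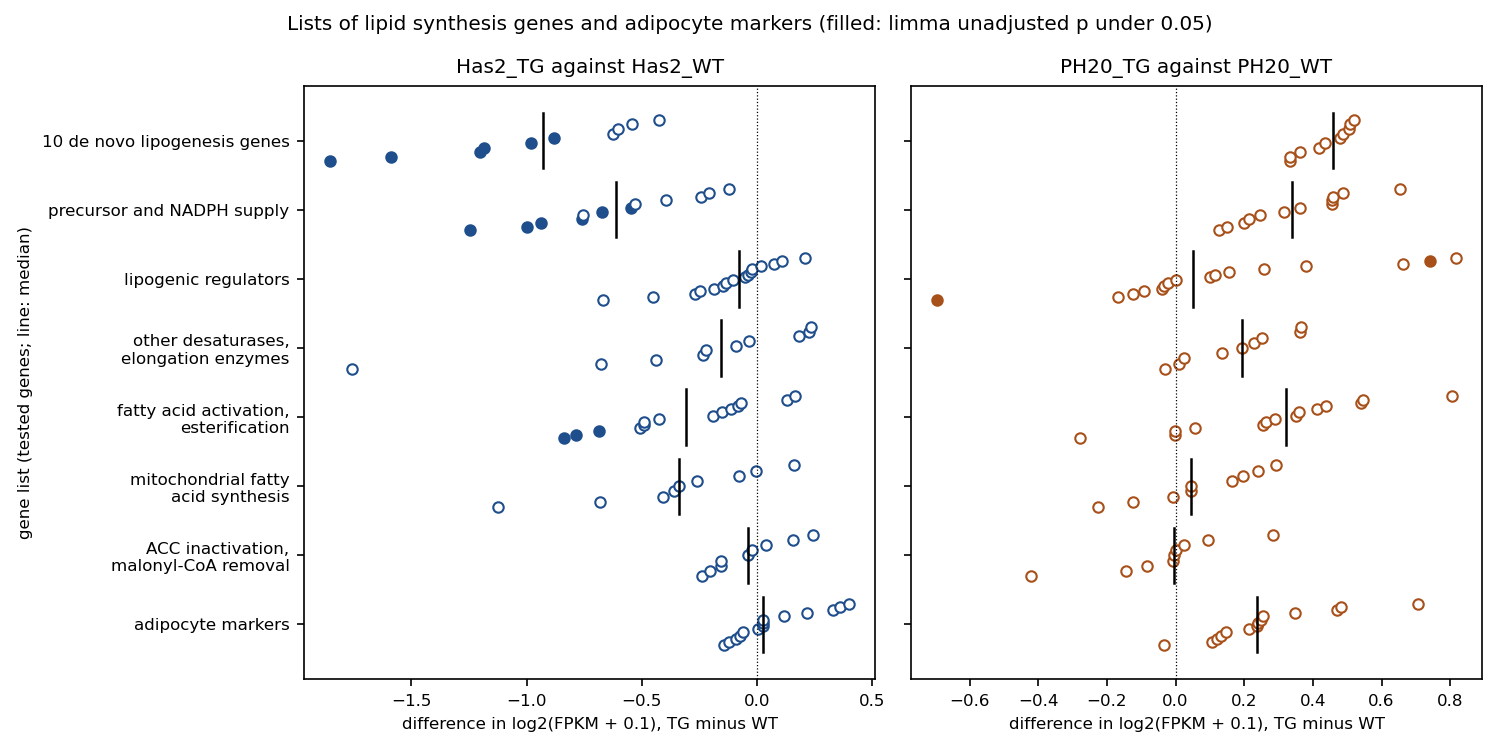
Difference in log2(FPKM + 0.1), TG minus WT, of each tested gene in the 10 de novo lipogenesis genes, 6 neighbouring pathway lists and the adipocyte markers, for the Has2 study (left) and the PH20 study (right, on its own scale). Filled points have a limma unadjusted p under 0.05 and vertical lines are list medians. On the left the 10 genes lie furthest below 0 (median -0.93), followed by precursor and NADPH supply (-0.61), while adipocyte markers lie around 0.

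The second comparison asked the same of PH20, which breaks hyaluronan down. None of the 10 genes passed in PH20_TG against PH20_WT by limma at an unadjusted p under 0.05, nor with voom weights on the reads recovered from the FPKM values. Their differences lay between 0.33 and 0.52 with a median of 0.46, and the groups overlapped for all 10. Of the 12532 genes tested, 3.20% were called higher and 3.39% lower, 2.21% were higher without overlap, and 0% passed after adjustment.

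Fasn was at 348, 859, 714 and 1003 FPKM in PH20_WT1 to PH20_WT4 and at 572, 1055, 1563 and 878 FPKM in PH20_TG1 to PH20_TG4. The lowest library of each group, PH20_WT1 and the library labelled PH20_TG1, lay well below the rest, and only PH20_TG3 and PH20_TG2 stood above the highest control. The difference was 0.49, with a 95% interval from -0.44 to 1.41 (limma adjusted p = 0.812). Elovl6 had the largest difference, 0.52, with an interval from -0.47 to 1.51 (limma adjusted p = 0.813).

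Scd1 was at 3264, 7344, 5388 and 5473 FPKM in PH20_WT and at 5040, 10198, 8023 and 5720 FPKM in PH20_TG. PH20_TG2 and PH20_TG3 stood above every control. The difference was 0.43, with an interval from -0.54 to 1.41 (limma adjusted p = 0.837). Scd2 was at 74.0, 82.9, 81.0 and 122 FPKM in PH20_WT and at 82.8, 219, 135 and 93.6 FPKM in PH20_TG, with the same 2 libraries on top. It had the smallest p of the 10 genes, at a difference of 0.48 (interval -0.22 to 1.18, limma adjusted p = 0.755). The ratio of Scd1 to Scd2 was 61.1 ± 21.1 in PH20_WT and 57.0 ± 6.95 in PH20_TG (SD, n = 4, exact permutation test on log2 ratios, two-sided, p = 0.743). That of Acaca to Acacb was 1.54 ± 0.15 and 1.73 ± 0.66 (p = 0.771 by the same exact test).

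Acly was at 71.1, 126, 138 and 278 FPKM in PH20_WT and at 116, 171, 398 and 179 FPKM in PH20_TG. Control PH20_WT4 lay above 3 of the 4 transgenic libraries. Its difference of 0.51 had an interval from -0.55 to 1.57 (limma adjusted p = 0.826). Thrsp, at 315, 661, 658 and 1309 FPKM in PH20_WT and 545, 803, 1202 and 861 FPKM in PH20_TG, had its highest value in a control.

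The libraries that stood apart bore on these values. Without the library labelled PH20_TG1 the median of the 10 genes was 0.66 and none passed. Without both PH20_TG libraries high in Has2, PH20_TG1 and PH20_TG4, it was 0.83, and 2 genes passed, Acacb (difference 1.203, limma adjusted p = 0.307) and Scd2 (0.96, limma adjusted p = 0.247). That fit called 5.59% of all genes higher. The same 2 libraries also stood apart in markers of other cells: the summed FPKM of progenitor markers was 773 in PH20_TG1 and 818 in PH20_TG4, against 166 in PH20_TG2 and 240 in PH20_TG3, and that of macrophage markers was 2108 and 852 against 257 and 422. The part of these cells in the values was not tested. Without PH20_TG3 the median of the 10 genes was 0.22. Without PH20_WT1, the library lowest in all 10 genes in its group and rich in B cell genes, the median was 0.15. With the B cell marker mean as a covariate it was -0.17, and with PH20_WT1 and PH20_WT3 left out 5 of the 10 differences were below 0.

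Of the neighbouring pathways, only the lipogenic regulators held called genes, 1 of 16 in each direction. Of all genes, 3.20% were called higher and 3.39% lower. Mid1ip1, a partner of Thrsp that promotes acetyl-CoA carboxylase polymerisation, went from 16.3 ± 1.03 to 29.3 ± 12.6 FPKM (SD, n = 4, difference 0.74, limma adjusted p = 0.703), and the coactivator Ppargc1b from 2.69 ± 0.38 to 1.64 ± 0.36 FPKM (difference -0.69, limma adjusted p = 0.664). Insig1 differed by 0.82 (limma adjusted p = 0.731) and Srebf1, picked as above, by 0.66 (limma adjusted p = 0.745). Precursor and NADPH supply had a median of 0.34 over 12 genes (Pgd 0.46, G6pdx 0.32, Hk2 0.65), activation and esterification 0.32 over 14 (Agpat2 0.81, Dgat1 0.41, Acsl3 0.44), other desaturases and elongation enzymes 0.19 over 9 (Fads2 0.37, Hsd17b12 0.36, Elovl1 0.19), mitochondrial fatty acid synthesis 0.04 over 9 (Lipt1 0.29, Mcat 0.20, Oxsm 0.24) and carboxylase inactivation -0.00477 over 9 (Prkab1 0.28, Trib3 -0.42, Stk11 0.09). No gene of these 5 lists passed.

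Markers of other cell types were called in this study as well, beside 3.20% of all genes called higher and 3.39% lower. Skeletal muscle markers fell for 10 of 11 tested (median -4.32), with summed FPKM of 269 to 1128 in PH20_WT and 11.2 to 319 in PH20_TG. B cell markers fell for 4 of 8 (median -3.02) and T cell markers for 5 of 8 (median -2.26). Adipocyte markers had a median of 0.24 with none of 14 called, and 1 of 6 brown and beige markers tested rose. For Schwann cell markers 1 of 7 fell, and no marker passed among 8 of macrophages, 8 of progenitors, 6 of endothelium and 1 of skin epithelium. With the skeletal muscle mean as a covariate none of the 10 genes passed, and their median was 0.79, against 0.46 without it. With the adipocyte marker mean as a covariate none passed and the median was 0.14.

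**Figure D4:**
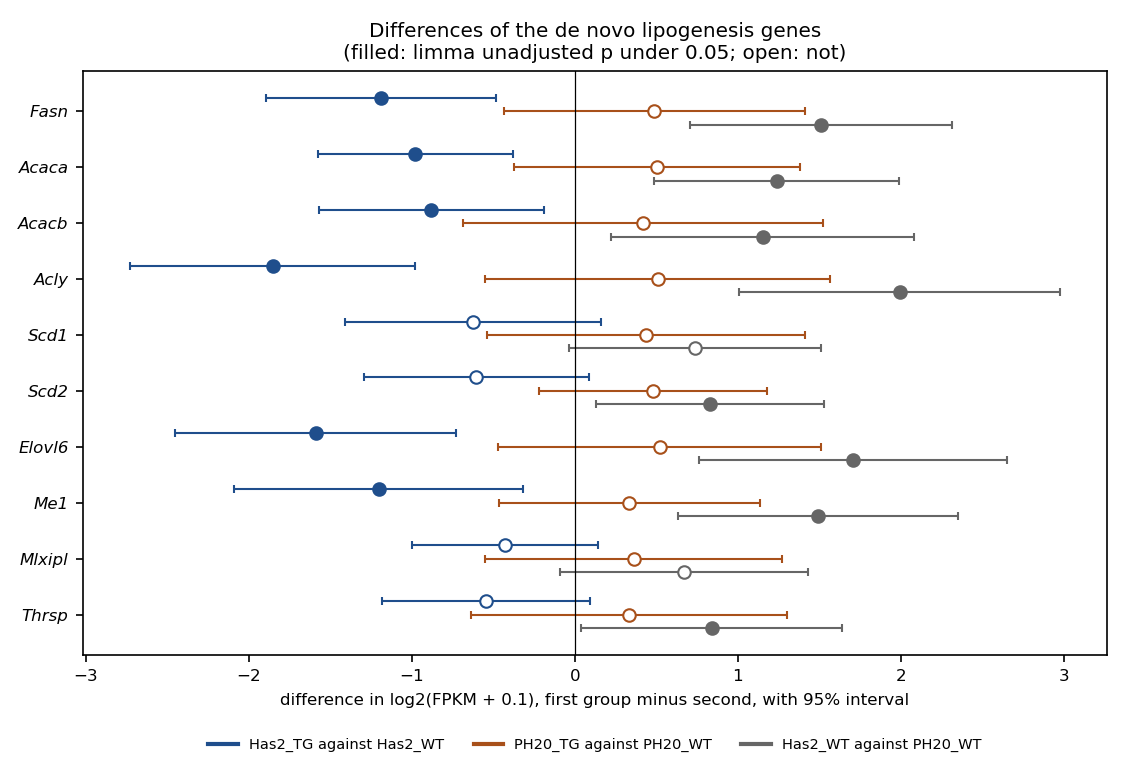
Difference in log2(FPKM + 0.1) of each of the 10 genes with its 95% interval, first group minus second, for Has2_TG against Has2_WT, PH20_TG against PH20_WT and Has2_WT against PH20_WT. Filled points have a limma unadjusted p under 0.05. Has2_WT takes part in 2 of the 3 comparisons, and all PH20_TG intervals cross 0.

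The 2 control groups have the same genotype and treatment, so their difference shows how far these genes vary between sets of mice that carry no hyaluronan transgene. In Has2_WT, 8 of the 10 genes were higher than in PH20_WT and none was lower, with a median difference of 1.19. Acly differed by 1.99 ± 0.46 (SE, limma adjusted p = 0.303), Elovl6 by 1.71 ± 0.44 (limma adjusted p = 0.303), Fasn by 1.51 ± 0.38 (limma adjusted p = 0.303) and Me1 by 1.49 ± 0.40 (limma adjusted p = 0.303). Acaca (1.24), Acacb (1.15), Thrsp (0.84) and Scd2 (0.83) also passed, while Scd1 (0.74, limma adjusted p = 0.509) and Mlxipl (0.67, limma adjusted p = 0.530) did not. Of 12593 genes tested, 5.61% were higher and 4.66% lower, and 0% passed after adjustment. Fasn, Acacb, Acly and Me1 did not overlap between the control groups, against 3.14% of all genes that were higher without overlap. Without PH20_WT1 the count was 5, and without Has2_WT3 or Has2_WT4 it was 6. Those fits called 458 of 12508, 467 of 12615 and 557 of 12597 genes higher.

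Has2_WT is also the control in the first comparison, so the 2 sets of differences share its libraries. Side by side, Has2_TG stood near both PH20 groups: mean Fasn was 858 ± 132 FPKM in Has2_TG, 731 ± 281 in PH20_WT and 1017 ± 415 in PH20_TG (SD, n = 4), against 2084 ± 975 in Has2_WT. Elovl6 followed the same layout at 38.1 ± 15.7, 37.6 ± 20.8 and 50.4 ± 20.8 FPKM, against 119 ± 59.97 in Has2_WT. The litter, the time of sampling and any run of the sequencer cannot be told apart from the study in these controls. The neighbouring lists differed too: 10 of 12 genes of precursor and NADPH supply and 7 of 14 of activation and esterification were higher in Has2_WT. Of 14 adipocyte markers none passed, 5 of 6 Schwann cell markers and 3 of 11 muscle markers were called lower, as were 2 of 6 endothelial, 2 of 8 macrophage and 1 of 8 progenitor markers. Called or not, every tested Schwann cell, muscle, endothelial, macrophage and progenitor marker had a difference below 0. The medians were -0.82, -3.50, -0.52, -0.76 and -0.84 in that order. Summed FPKM of the muscle markers was 26.1 to 126 in Has2_WT and 269 to 1128 in PH20_WT, without overlap. Of the brown and beige markers 2 of 8 were higher, and no marker of B cells, T cells or skin epithelium passed. Over all genes 5.61% were called higher and 4.66% lower. The part of these cells in the lipogenic values was not tested.

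The difference between both transgene effects was tested in 1 fit over all 16 libraries. The Has2 effect minus the PH20 effect was called below 0 for 6 genes, at -2.36 ± 0.65 for Acly (SE, limma adjusted p = 0.567), -2.11 ± 0.63 for Elovl6, -1.67 ± 0.53 for Fasn, -1.54 ± 0.57 for Me1, -1.48 ± 0.50 for Acaca and -1.08 ± 0.46 for Scd2 (limma adjusted p = 0.613). The other 4 differences lay between -1.30 and -0.79. Of all genes 3.68% were called lower in this test and 0% passed after adjustment. The Scd2 call was lost in 10 of the 16 fits that left out 1 library, while the other 5 calls were made in all of them. The control groups enter this test with the difference described above.

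Across libraries the 10 genes moved as a group. The mean of their log2(FPKM + 0.1) values was highest in Has2_WT3 (9.24), followed by Has2_WT4 (8.66), and lowest in PH20_WT1 (6.40) and the library labelled PH20_TG1 (7.10). Over the 16 libraries the 45 pairs of genes had a median Pearson r of 0.83 (range 0.54 to 0.98), and 0.80 (0.25 to 0.98) after each group was centred on its mean. Acaca had the highest median r with the other genes (0.93) and Scd2 the lowest (0.65), followed by Scd1 (0.73). All points share the same libraries, so these values are descriptions.

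**Figure D5:**
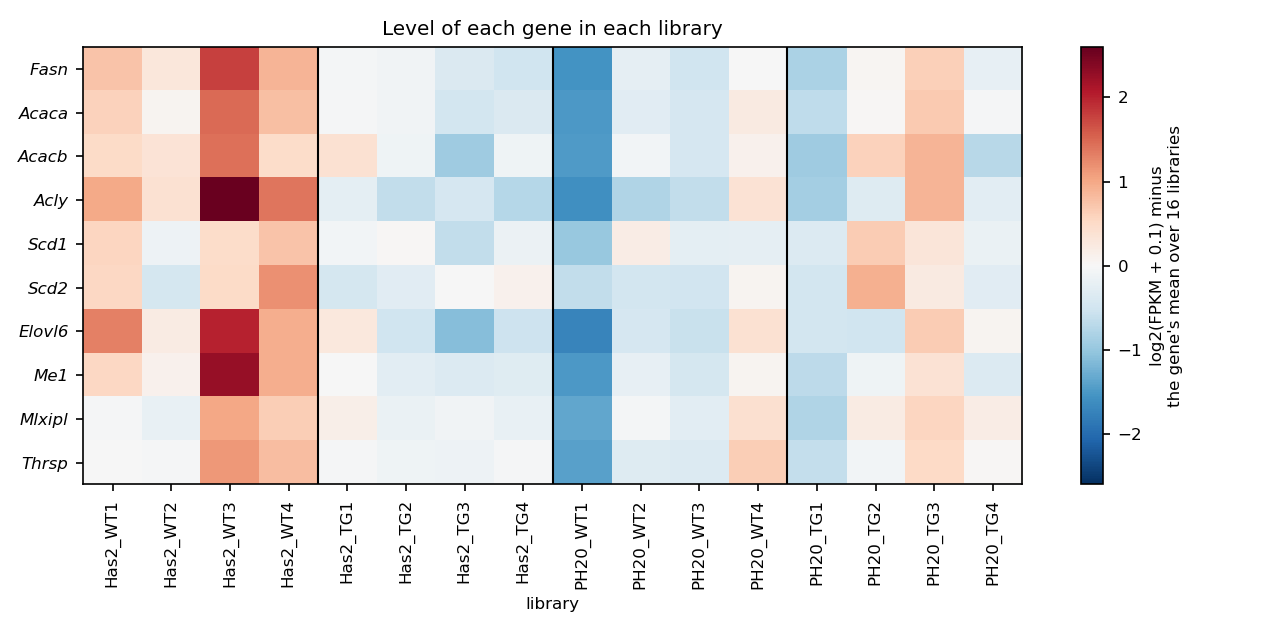
Log2(FPKM + 0.1) of each of the 10 genes in each library minus the gene's mean over the 16 libraries. Red is above the mean and blue below. Whole columns share a colour: Has2_WT3 is the reddest and PH20_WT1 the bluest, and the Scd1 and Scd2 rows depart most from the others, as in PH20_TG2.

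Of 12593 genes compared, 34 had an r above 0.9 with the mean profile of the 10 genes, while the median gene had an r of -0.03. The 8 closest genes outside the 10 were Parm1 (r = 0.96 over 16 libraries), Pygl (0.96), 4930402H24Rik (0.95), Acss2 (0.95), Dlat (0.94), Mpc1-ps (0.94), Gbe1 (0.93) and Pcx (0.93). Pygl and Gbe1 are enzymes of glycogen breakdown and synthesis, Dlat is a subunit of the pyruvate dehydrogenase complex, Pcx is pyruvate carboxylase, and Mpc1-ps is a processed pseudogene that may share reads with its parent gene. Pygl was at 97.3 FPKM in Has2_WT against 51.1, 50.1 and 53.6 in Has2_TG, PH20_WT and PH20_TG. These 8 genes were picked for their likeness over the same libraries, so a shared layout of groups follows from that choice. The mean of the 10 genes had a Pearson r of 0.60 with the adipocyte markers over the 16 libraries (0.74 within groups), 0.63 with brown and beige markers, -0.67 with progenitor markers, -0.27 with B cell markers (-0.70 within groups) and -0.06 with skeletal muscle markers.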

How the data were processed

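RNA was measured in iWAT of 4 groups of 4 mice. The authors extracted RNA with TRIzol, made TruSeq libraries and, per the submitters' notes and the methods, used FastQC 0.11.9, STAR 2.7.9a with its gene counts on GRCm38, MultiQC 1.12 and DESeq2. The deposited table holds FPKM per gene and library. How the authors computed FPKM is not given in the sources used here. FPKM times gene length gave whole reads for 100% of 299497 nonzero values (tolerance 0.01), from which depth and the minimum of 50 mean reads were taken. The library total that FPKM implies was not the sum of reads on genes. It was from 0.886 times that sum in Has2_WT3 to 1.14 times in PH20_WT1, the libraries highest and lowest in the 10 genes. A total under the sum raises FPKM, and one above it lowers FPKM.

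Differences were fitted with limma 3.58.1 (R 4.3.3, variance trend) on log2(FPKM + 0.1) across all genes, over the 8 libraries of a study, or over all 16 for the controls and for the difference of effects. Such fold changes understate those of low genes. Single values were compared by exact permutation tests (scipy 1.17.1), whose smallest p with 4 against 4 is 0.0286. There were 32 tests of list means, and the p-values printed for them are unadjusted, with 0.305 the smallest adjusted. The fit was also run on simulated counts that had the same dispersion for every gene and no outlying library. That setting is simpler than these data, so it does not show how the fit handles them. No 2 of the 120 pairs of libraries agreed within sampling noise (smallest chi-square per degree of freedom 28.7).

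The 10 genes, the lists and the tests were chosen with earlier results of these data known. All 10 genes are named in every comparison, as are the 3 genes of each neighbouring list with the smallest p in each transgene study, and the 8 other genes closest to the mean profile. Alternatives covered the pseudocount, the filter, the scaling, voom weights, marker covariates, the replicate block and leaving out libraries. Leaving out the B cell-rich libraries, or the PH20_TG libraries high in Has2, was added after seeing the data. Promoters came from RefSeq (GRCm38.p6). Those of Scd1 and Scd2 were not used here.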

Additional observations from a re-analysis of the deposited data

Results flagged for a closer look

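In Has2_WT, Acacb stood at 135.7 FPKM in Has2_WT3, far from the other 3 libraries by Dixon's criterion. The genes of acetyl-CoA carboxylase inactivation had a mean log2(FPKM + 0.1) of 3.39 in Has2_TG1, far above the other Has2_TG libraries. For the skin epithelium list, of which 1 gene was tested, the mean was -1.96 in PH20_WT1, far below its group. These are 3 of 104 groups examined, and chance flags about 1 in 20 groups.

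The Has2 and PH20 effects differed in limma's test of the difference itself for 6 genes. The differences on the log2 scale, Has2 effect minus PH20 effect, were -2.36 for Acly, -2.11 for Elovl6, -1.67 for Fasn, -1.54 for Me1, -1.48 for Acaca and -1.08 for Scd2, and none passed after adjustment over all genes (smallest adjusted p 0.567). The control groups themselves differed, with Has2_WT above PH20_WT, and a higher Has2_WT and a lower PH20_WT both make these values more negative.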

How the results depend on the processing

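In Has2_TG against Has2_WT, Acly, Elovl6, Me1, Fasn and Acaca were called lower under all 12 alternatives and in all 8 fits without 1 library, and Acacb under 10 of 12 and in 8 of 8. The count of 10 genes called lower ranged from 5 to 10 over the alternatives and from 6 to 9 without 1 library. It was 10 with the B cell-rich libraries left out, a fit whose only controls were Has2_WT3 and Has2_WT4, the libraries highest in these genes. Over the alternatives, the share of all genes called lower ran from 800 of 25564 with no read filter to 627 of 12606 with the adipocyte covariate. Without 1 library it ran from 329 of 12611 to 592 of 12653. The median ranged from -1.09 to -0.68 without 1 library. In PH20_TG against PH20_WT the count stayed at 0 without any 1 library (median 0.15 to 0.66) and was 2 with the PH20_TG libraries high in Has2 left out. The median was -0.17 with the B cell covariate. In the control comparison the count ranged from 5 (without PH20_WT1) to 10 and the median from 0.86 to 1.43, or to 1.41 without 1 library. There the share of all genes called higher ran from 425 of 12269 with the B cell-rich libraries left out to 912 of 12614 without PH20_WT2. For the difference between effects the count ranged from 5 to 9 and the median from -1.65 to -1.07 without 1 library, and the count was 10 with the B cell covariate. Of all genes, 315 of 12615 to 611 of 12492 were called lower without 1 library, and 574 of 12593 with that covariate.

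The PH20 differences below changed sign, and none of the 10 had passed the test. With the B cell covariate they were Fasn -0.094, Acaca -0.12, Acacb -0.21, Acly -0.13, Elovl6 -0.23, Me1 -0.26, Mlxipl -0.28 and Thrsp -0.35. With the B cell-rich libraries left out they were Acacb -0.071, Elovl6 -0.046, Me1 -0.12, Mlxipl -0.14 and Thrsp -0.18. They were -0.010 for Scd2 with the muscle covariate, -0.073 for Acacb with the adipocyte covariate and -0.015 for Thrsp without PH20_WT1, which ranged from -0.015 to 0.67 without 1 library. The cause was not tested.

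Not every same-numbered pair of libraries deviated together (r from -0.179 to 0.13 in the Has2 study, from -0.0361 to 0.418 in the PH20 study and from -0.42 to 0.543 between the controls), so the numbers were not taken to pair the libraries, although 2 of the 4 PH20 pairs had r of 0.345 and 0.418. With the replicate block the counts were 6 for Has2, with Scd2 gained and Acacb lost, 0 for PH20, 9 for the controls and 9 for the difference of effects. Of all genes, the block called 403 of 12606 lower for Has2, 765 of 12593 higher for the controls and 552 of 12593 lower for the difference. Over all genes, the Has2 comparison had 13 calls after adjustment, 0 to 51 under the alternatives and 141 without Has2_WT4. The lowest count of any of the 10 genes in a library was 1835 reads.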
